A study of Sus scrofa with 12 samples.

Results

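MSS51, FMO1, ALDH1A1, OCA2 and C4BPA are 5 genes measured in the longissimus dorsi, a back muscle, of pigs. They were chosen by their measured intensities, which were high in the older postnatal animals. They were found by symbol in the platform's probe annotation, which gave 6 probe sets of 23999 and 5 genes of the 6765 with a symbol of their own. ALDH1A1 had 2 probe sets and the other genes had 1 each. Because the stage values chose the genes, their stage values are given as a description and without a test. Tests are given for other genes of the same pathways and for neighbouring genes.

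RNA came from Meishan pigs, a Chinese breed, kept under standard commercial feeding. The 4 groups were fetuses at 65 days post coitus (dpc) and animals at 3, 60 and 120 days after birth, with 3 biological replicates and 3 arrays in each. Fetuses of one sow were counted as 1 individual. No group carried a treatment or an altered gene, the labels give no sex, and they tie no animal of one stage to an animal of another.

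The genes have different known roles. FMO1 is a flavin-containing monooxygenase of the endoplasmic reticulum that oxygenates nitrogen and sulfur atoms of drugs and of small metabolites, and in mammals it is best known from liver and kidney. ALDH1A1 is a cytosolic aldehyde dehydrogenase that turns retinaldehyde into retinoic acid, the ligand of the nuclear receptors RAR, which act as pairs with RXR. OCA2 is a melanosome membrane protein whose loss causes a form of albinism. C4BPA is the alpha chain of the C4b-binding protein, a plasma inhibitor of complement made mostly by the liver. MSS51 is a zinc finger protein of the MYND type found in skeletal muscle mitochondria. Its yeast namesake is needed to make a subunit of cytochrome c oxidase, and in mouse muscle cells its RNA fell when myostatin signalling was blocked.

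Array medians lay between 49.3 and 52.8. Across probe sets, r between 2 arrays was 0.905 to 0.985 within a stage and 0.714 to 0.975 between stages. Creatine kinase CKM, a defining muscle marker, was bright on every array, at 4577 to 9141. Some arrays stood apart in other markers. The summed intensity of 9 macrophage and leukocyte markers was 2470 on fetal replicate 3, against 480 and 573 on the other fetal arrays. The sum of 6 hepatocyte markers was 2104 on replicate 3 of the 3 day animals, against 516 and 448 on the other arrays of that age. Haptoglobin (HP) carried that high sum, since it reached 1755 at 3 days and no other marker of the list read above 256 there. The sum of 12 markers of fibro-adipogenic cells was 6359 on replicate 2 of the 60 day animals, against 11256 and 8934 on the others. Calls and counts below that changed without 1 array are given with that array. Intensities came from whole muscle, where fewer cells of a type and less RNA per cell cannot be told apart.

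FMO1 was at the bottom of the array in the fetus and high after birth. Its intensities were 7.83, 7.93 and 8.55 in fetuses, 136, 92.7 and 153 at 3 days, 391, 455 and 365 at 60 days, and 216, 251 and 175 at 120 days. The 3 fetal values were the lowest by far, with only 6.49% to 7.53% of probe sets dimmer on those arrays. The stages ran, from lowest to highest, fetus, 3 days, 120 days and 60 days, and no 2 stages overlapped. On the log2(intensity + 21) scale used for every difference here, FMO1 was 2.33 higher at 3 days than in the fetus and 1.53 higher at 60 days than at 3 days. Its difference of 120 from 60 days was -0.86, so its 60 day level was a peak. At 120 days it was still 0.68 above the 3 day level. The added constant understates differences of dim probe sets, and with a constant of 1 the first difference was 3.79.

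ALDH1A1 was low up to 3 days and high from 60 days on. The brighter probe set read 39.8, 55.6 and 101 in fetuses, 57.9, 47.9 and 38.4 at 3 days, 295, 174 and 196 at 60 days, and 285, 179 and 370 at 120 days. The fetal and 3 day arrays overlapped, as did the 60 and 120 day arrays, and every value of the later pair of stages lay above every value of the earlier pair. The step between 3 and 60 days was 1.79, and the stages on either side of it differed by -0.27 (3 days minus fetus) and 0.28 (120 minus 60 days). Without fetal replicate 3, the highest fetal array, the first of these was 0.0074, without fetal replicate 1 it was -0.50 and without 3 day replicate 3 it was -0.17. The second was 0.062 without 120 day replicate 3, 0.14 without 60 day replicate 2, 0.49 without 60 day replicate 1 and 0.54 without 120 day replicate 2. The second ALDH1A1 probe set read 24.6, 33.2 and 44.2 in fetuses, 36.5, 28.8 and 23.8 at 3 days, 124, 70.2 and 85.9 at 60 days, and 105, 62.3 and 157 at 120 days. It showed the same step, of 1.15, and its highest array was the same one at every stage. Its fetal and 3 day values passed the filter on low values on only 1 of those 6 arrays.

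OCA2 went against the name of a gene that rises after birth, because its fetal level was as high as its last. Its intensities were 231, 191 and 121 in fetuses, 13.8, 10.3 and 8.61 at 3 days, 109, 10.4 and 148 at 60 days, and 289, 205 and 212 at 120 days. The 3 day animals were all near the array's floor, with 6.35% to 12.7% of probe sets dimmer. At 60 days 2 arrays were intermediate and replicate 2 was at the 3 day level. The difference of 3 days from the fetus was -2.63 and that of 120 from 3 days was 2.99, and neither pair overlapped. With a constant of 1 they were -3.91 and 4.32, and with 51 they were -1.88 and 2.198. The 120 day and fetal arrays overlapped and differed by 0.37. The 60 day level was 1.47 above the 3 day level with overlapping arrays. Without 60 day replicate 2 that difference was 2.22, and the difference of 120 from 60 days was 0.78 in place of 1.52.

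The C4BPA probe set was higher at 3 days than in the fetus and higher again at 60 days, with a wide spread after birth. It read 14.5, 15.7 and 25.4 in fetuses, 184, 58.9 and 47.1 at 3 days, 279, 469 and 961 at 60 days, and 1118, 231 and 731 at 120 days. The highest array of a stage was 3.91 times the lowest at 3 days, 3.44 times at 60 days and 4.83 times at 120 days. The 60 and 120 day arrays overlapped, while neither earlier pair of neighbouring stages did. The differences were 1.403 for 3 days minus fetus, 2.34 for 60 minus 3 days and 0.19 for 120 minus 60 days. The first was 0.91 without 3 day replicate 1, and with all arrays it was 2.10 with a constant of 1 and 0.98 with 51. The difference of 120 from 60 days had the opposite sign, at -0.21 without 60 day replicate 1 and at -0.27 without 120 day replicate 1, and was 0.65 without 60 day replicate 3, 0.82 without 120 day replicate 2 and 0.031 without 120 day replicate 3, so those stages had no stable order. Fetal replicate 3, which had the high macrophage marker sum, was the highest fetal C4BPA array, at 25.4. Replicate 3 of the 3 day animals, which had the high hepatocyte marker sum carried by HP, was the lowest of its stage, at 47.1. The part of these cells in the C4BPA values was not tested.

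The identity behind the C4BPA symbol has a limit. The probe set's Entrez record also carries the name APOR, apolipoprotein R, a pig plasma protein related to the alpha chain. In the RefSeq gene table of assembly Sscrofa11.1 a second gene with the symbol C4BPA lies directly beside it and has no probe set of its own here. Which of the 2 neighbouring genes the probes read was not tested.

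MSS51 was low in the fetus and at 3 days and high at 120 days. Its intensities were 66.5, 63.8 and 61.1 in fetuses, 177, 95.8 and 53.6 at 3 days, 1287, 284 and 1478 at 60 days, and 1783, 1569 and 1753 at 120 days. The fetal arrays were within 1.09 times of each other and those of 120 days within 1.14 times, while the 3 day arrays spanned 3.30 times and the 60 day arrays 5.21 times. The fetal and 3 day arrays overlapped. MSS51 was 2.81 higher at 60 days than at 3 days, 1.03 higher at 120 than at 60 days and 3.84 higher at 120 than at 3 days. The last value was the largest of the 5 genes with the constant of 21, whereas with a constant of 1 it was 4.12 for MSS51 and 4.32 for OCA2. The mean intensity at 120 days was 26.7 times that of the fetus. Replicate 2 was low among the 60 day animals. Without it the difference of 60 from 3 days was 3.55 and that of 120 from 60 days was 0.30.

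**Figure D1:**
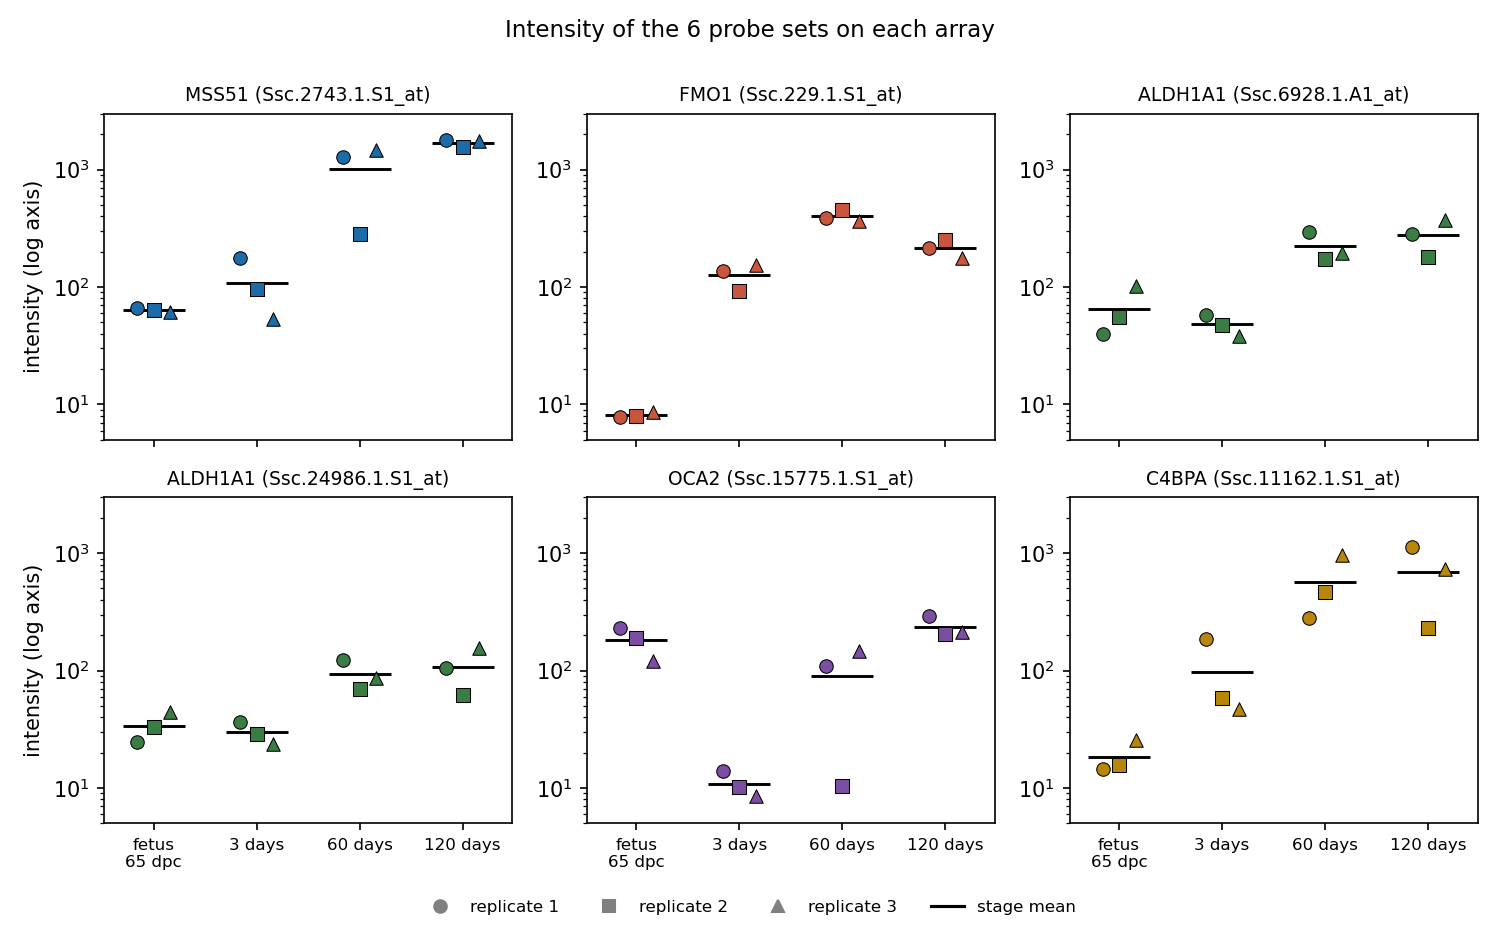
Intensity on a log axis of each of the 6 probe sets on every array, with stages from left to right, 1 point per array and a bar at the stage mean. FMO1 peaks at 60 days, OCA2 is at 8.61 to 13.8 in all 3 day animals and again at 10.4 on 60 day replicate 2, and both ALDH1A1 probe sets step up between 3 and 60 days.

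Between 3 and 60 days, 4 of the 5 genes were higher at 60 days without overlap of their arrays, OCA2 being the exception, and 10.4% of all 16166 probe sets tested were too (20.4% did not overlap in either direction). All 5 were higher without overlap at 120 than at 3 days, as were 16.0% of probe sets. Nothing is read from these counts, since the genes were chosen for those values. Across birth 3 of the 5 did not overlap, of which FMO1 and C4BPA were higher and OCA2 lower at 3 days, and 53.0% of probe sets did not overlap in either direction. Between 60 and 120 days MSS51 and OCA2 were higher and FMO1 lower without overlap, and 13.9% of probe sets did not overlap, 6.33% being higher at 120 days.

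The 5 genes did not share 1 course. The difference between 2 courses was measured as the root mean square of the differences between their log2 values over the 12 arrays, each gene centred on its own mean. The closest pair was MSS51 and C4BPA, at 0.88, and only 1 of the other genes lay closer to MSS51. The most distant pairs were FMO1 with OCA2, at 2.16, and OCA2 with C4BPA, at 2.03. All 12 arrays enter these values, which are descriptions.

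Within stages the genes also parted. On 60 day replicate 2 the difference from the stage mean was -1.47 for MSS51 and -1.49 for OCA2, while it was 0.17 for FMO1. On 3 day replicate 1, MSS51 was 0.72 and C4BPA 0.99 above the stage mean, and OCA2 was only 0.13 above. On 120 day replicate 2 it was -1.25 for C4BPA, -0.52 for ALDH1A1 and -0.11 for MSS51. All 5 genes lay above their stage mean on that 3 day array and on 120 day replicate 1, and on no array were all 5 below it.

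**Figure D2:**
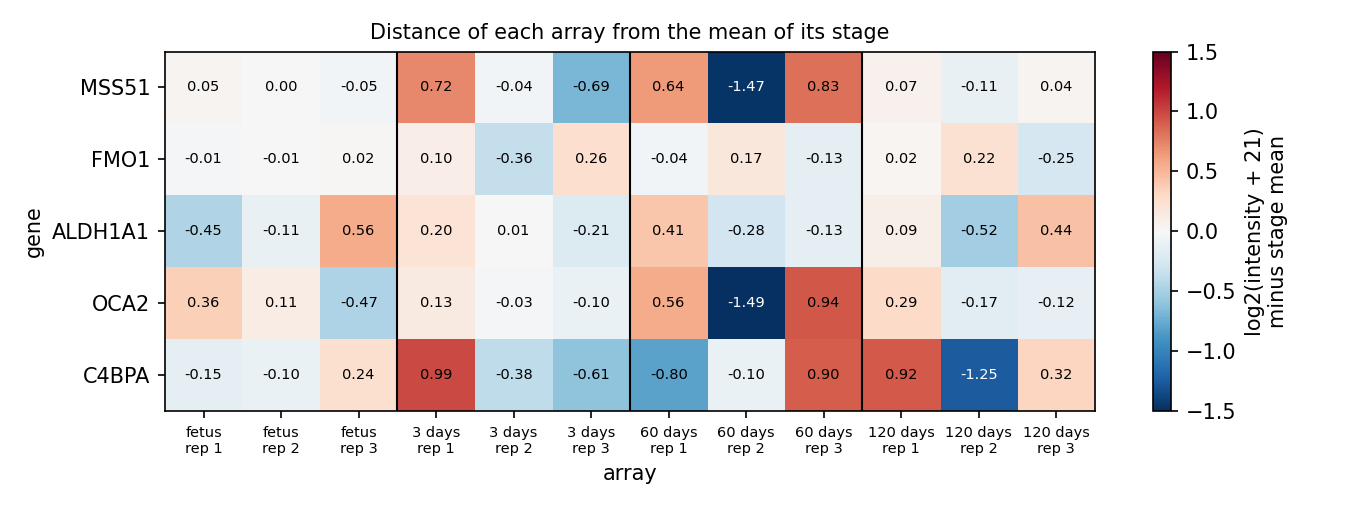
Difference of each array from the mean of its own stage in log2(intensity + 21), with the 5 genes in rows and the 12 arrays in columns. The darkest cells are MSS51 (-1.47) and OCA2 (-1.49) on 60 day replicate 2 and C4BPA (-1.25) on 120 day replicate 2.

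The 60 day arrays were also compared with the other stages over the whole array. For replicate 2 the root mean square distance from the 3 day mean was 0.50 over 16166 probe sets and that from the 120 day mean 0.44. Replicate 1 had 0.55 and 0.46, and replicate 3 had 0.42 and 0.29. Replicate 3 was nearest to both means, and all 3 arrays were nearer to the 120 day mean than to the 3 day mean. It was also nearest to the mean of the other 60 day arrays, at 0.39, against 0.49 for replicates 1 and 2. The distances from the 3 and 120 day means lay closest together on replicate 2. These distances do not place an array between the stages.

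The genes nearest to MSS51 in course were BPGM, the mutase that makes bisphosphoglycerate, at 0.62, then C4BPA, GAMT, which makes creatine, at 0.95, the ubiquitin ligase WWP1 at 0.99 and BCKDHB, a subunit of the branched-chain keto acid dehydrogenase, at 1.01. BPGM read 1263, 337 and 1068 at 60 days, against 217, 197 and 72.9 at 3 days. It had its low 60 day array on replicate 2, like MSS51, and its low 3 day array on replicate 3, like MSS51. GAMT was also lowest on those arrays, with 208 against 361 and 709 on the other 60 day arrays, while BCKDHB was highest there among the 60 day animals, at 644.

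The genes nearest to OCA2 were CCDC80, a secreted matrix protein, at 0.70, MSTN (myostatin, the secreted inhibitor of muscle growth) at 0.75, RHOBTB1 at 0.79, APP at 0.81 and FAM69A at 0.82. MSTN read 537, 1136 and 385 in fetuses, 80.6, 65.1 and 14.6 at 3 days, 257, 26.1 and 160 at 60 days, and 238, 248 and 282 at 120 days. CCDC80 read 355, 489 and 302, then 203, 205 and 69.0, then 337, 60.8 and 338, and then 536, 361 and 342 over the same stages. Both had a trough at 3 days and a low 60 day replicate 2, as OCA2 did. RHOBTB1 read 891, 458 and 745 at 60 days and APP 1093, 581 and 888, again with replicate 2 lowest. Markers of fibro-adipogenic cells were lowest on the same 60 day array, as given above, and their part in these values was not tested. Their defining marker PDGFRA had no probe set among those named here.

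FMO1's nearest courses were closer. They were those of FKBP5, a glucocorticoid-responsive immunophilin, at 0.51, PYGM (muscle glycogen phosphorylase) at 0.54, PFKM (muscle phosphofructokinase) at 0.56, the transcription factor KLF9 at 0.56 and PDLIM3 at 0.57. FKBP5 averaged 114 ± 67.6 in fetuses, 692 ± 397 at 3 days, 1214 ± 301 at 60 days and 776 ± 109 at 120 days (SD, n = 3 each). KLF9 averaged 42.9 ± 16.6, 739 ± 131, 939 ± 173 and 582 ± 120 over the same stages. Both had their highest mean at 60 days, as FMO1 did, whereas PYGM was highest at 120 days, with 7029 ± 373 there and 6197 ± 765 at 60 days.

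ALDH1A1 had the smallest distances of all, with OPTN, the autophagy receptor optineurin, at 0.29, TEX9 at 0.46, the sugar transporter SLC2A12 at 0.47, ATL2 (an atlastin of the endoplasmic reticulum) at 0.48 and CHPT1 (a choline phosphotransferase) at 0.48. Its own spread over the arrays was the smallest of the 5 genes as well, at an SD of 1.01, against 2.01 for MSS51, so the distances are not on an equal footing. OPTN read 188, 270 and 538 in fetuses, 234, 209 and 271 at 3 days, 805, 742 and 635 at 60 days, and 756, 848 and 1581 at 120 days. It shared with ALDH1A1 the high fetal replicate 3 and the high 120 day replicate 3.

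C4BPA's nearest courses were those of the glutathione peroxidase GPX2 at 0.74, the muscle fructose bisphosphatase FBP2 at 0.83, BCKDHB at 0.86, MSS51 at 0.88 and PPP1R1A, an inhibitor of protein phosphatase, at 0.88. GPX2 read 154, 550 and 1752 at 60 days, in the same order of arrays as C4BPA, and 732, 118 and 193 at 120 days, where the highest and the lowest array were the same ones.

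**Figure D3:**
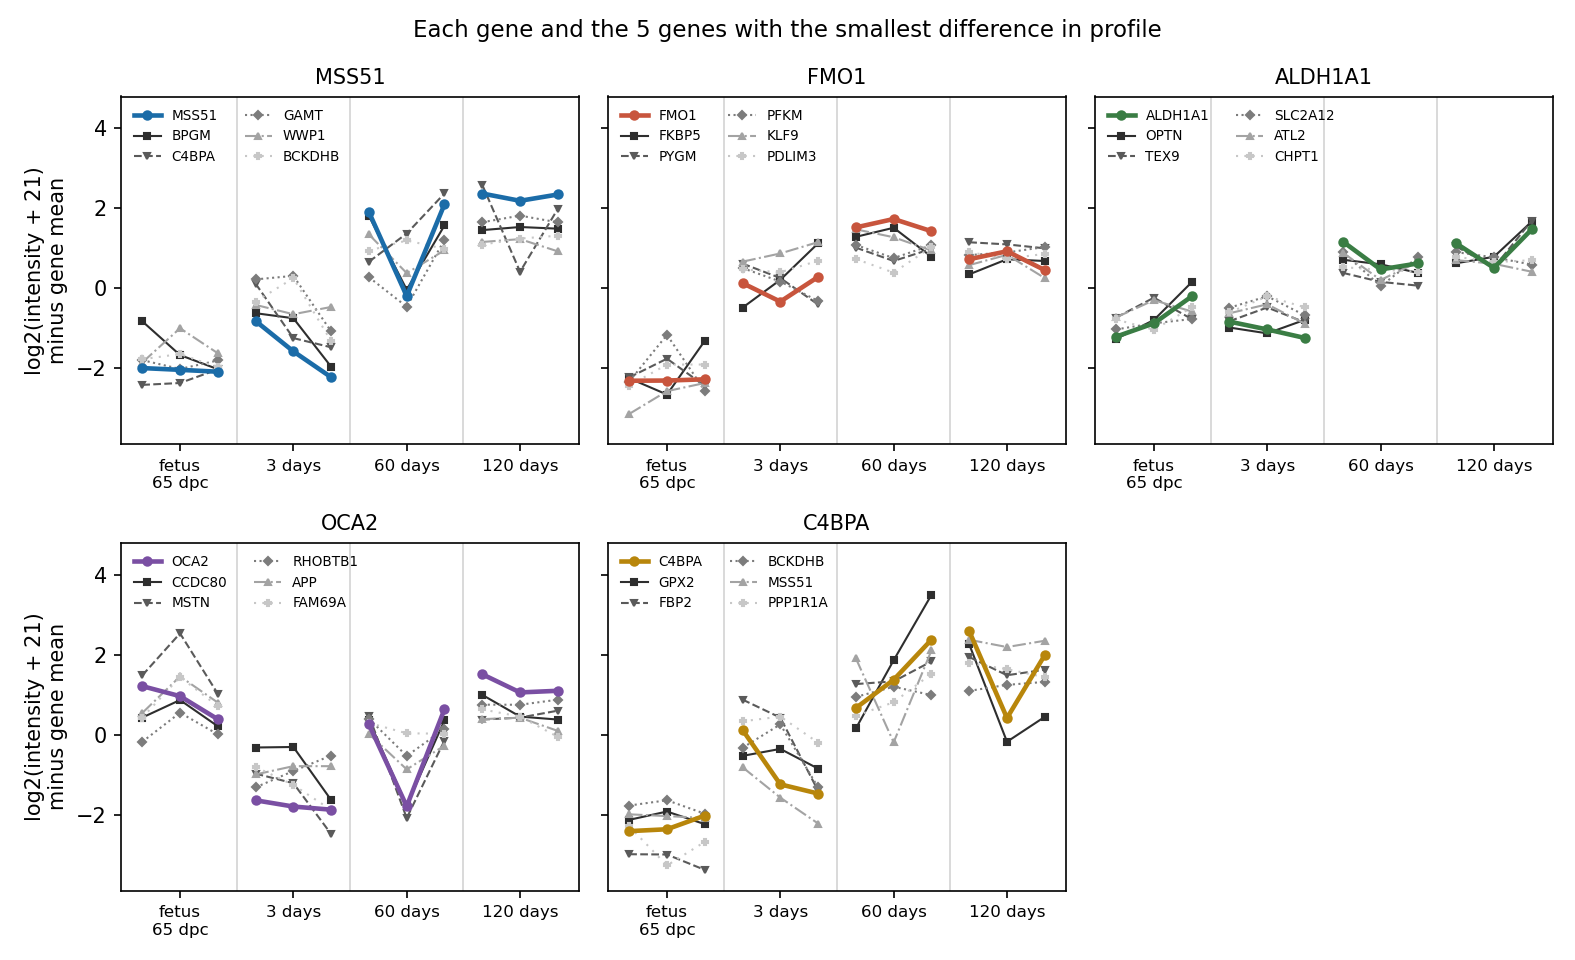
Each of the 5 genes (thick line) with the 5 genes of smallest root mean square difference, as log2(intensity + 21) minus the gene's mean, on the 12 arrays in stage order; lines join the 3 arrays of 1 stage, which have no order among themselves. The panel for OCA2 shows CCDC80 and MSTN with the same low 3 day arrays and low 60 day replicate 2, and the panel for ALDH1A1 shows OPTN at a distance of 0.29.

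Other genes of each pathway were tested in a limma fit over all 12 arrays, with Benjamini-Hochberg adjustment over 16166 probe sets and a call at an adjusted p under 0.05. Across birth 43.0% of all probe sets were called, with 20.3% higher and 22.6% lower at 3 days. Between 3 and 60 days 1.53% were called and between 3 and 120 days 4.42%, with 2.29% higher and 2.12% lower at 120 days. Between 60 and 120 days limma called 0 of 16166, with 1021 at an unadjusted p under 0.05. When arrays were centred on the spiked hybridization controls, the median of all probe sets moved to -0.28 across birth and -0.16 between 3 and 120 days, and the share of calls that were higher was 19.3% in place of 47.3% across birth, 30.2% in place of 51.4% from 3 to 60 days and 24.2% in place of 52% from 3 to 120 days. Directions below are relative to the bulk of the probe sets.

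Over the 8 pathway lists, 132 genes other than the 5 were measured. Across birth 33 were higher and 32 lower (49.2%, near the 43.0% of all probe sets). Between 3 and 60 days 1 was higher and 1 lower, which is 1.52% and close to the 1.53% background. Between 3 and 120 days 7 were higher and 4 lower, or 8.33% against 4.42%. The median difference of the 132 genes was 0.0048 for 60 minus 3 days and 0.037 for 120 minus 3 days, with -0.00019 and -0.0070 over all probe sets.

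Among 28 measured enzymes of xenobiotic metabolism other than FMO1, 9 were higher and 5 lower at 3 days than in the fetus (50%, with 43.0% of all probe sets), with a median difference of 0.20. The 5 became 3 without 3 day replicate 1 or 3. The aldo-keto reductase AKR1C1 rose by 2.30 ± 0.44 (SE, adjusted p = 0.00144), with 100, 246 and 109 at 3 days and 14.0, 10.3 and 11.04 in the fetus. The glutathione transferase GSTZ1 rose by 1.62 and NQO1, a quinone reductase, by 1.44, while the transferase GSTA4 fell by 1.80. From 3 to 60 days only EPHX2, the soluble epoxide hydrolase, was called, at 1.01 ± 0.17 (SE, adjusted p = 0.0135). It read 134, 100 and 128 at 60 days, against 61.7, 49.3 and 37.9 at 3 days, without overlap. Its call did not hold without 3 day replicate 2 or without 60 day replicate 1.

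From 3 to 120 days 4 of the 28 were called higher and 0 lower (14.3%, with 4.42% of all probe sets called and 2.29% higher). The 4 became 0 without 120 day replicate 1, 1 without replicate 2 of that age, and 2 without its replicate 3 or 3 day replicate 2 or 3. CYP3A29, a cytochrome P450, had the largest difference, 3.81 ± 0.73 (SE, adjusted p = 0.0144). It read 473, 293 and 1166 at 120 days, against 38.3, 13.5 and 11.9 at 3 days, and its fetal arrays read 6.96, 5.67 and 155. The call did not hold without 3 day replicate 2 or without 120 day replicate 1 or 3, and the highest adjusted p over the 24 alternatives was 0.0575. CYP3A genes are close copies of one another, so the probe set may read more than 1 of them. NQO1 rose by 1.21, MAOB, a monoamine oxidase, by 0.83 and EPHX2 by 0.68. NQO1 was not called without 120 day replicate 1 or 2, MAOB without 3 day replicate 1 or 3 or 120 day replicate 1 or 2, and EPHX2 without any 1 of 5 postnatal arrays or without fetal replicate 1. FMO5, another flavin-containing monooxygenase, averaged 18.5 to 23.8 over the stages and did not pass the filter.

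Of 15 measured retinoid genes other than ALDH1A1, 2 were higher and 4 lower at 3 days than in the fetus (40%, with 43.0% of all probe sets), with a median difference of -0.17. The lower ones included CRABP2, which carries retinoic acid to its receptors (-0.90, adjusted p = 0.00842), the nuclear receptor NR2F2 (-1.11) and the retinol dehydrogenase RDH11 (-0.90). DHRS4, a retinal reductase, rose by 0.97. The DHRS4 call did not hold without fetal replicate 2 or 3 day replicate 1 or 2, nor that of RDH11 without fetal replicate 1 or 2. The 4 lower genes became 2 without fetal replicate 1. None of the 15 was called in any comparison after birth, where 1.53% (60 against 3 days) and 4.42% (120 against 3 days) of all probe sets were. Without 3 day replicate 3, 1 of the 15 was lower at 60 than at 3 days. At 120 against 3 days 1 was lower without fetal replicate 1 or 2, 3 day replicate 3 or 60 day replicate 1 or 3, and 1 was higher without 60 day replicate 2. The receptor RXRG had the largest difference of 120 from 3 days, 1.45 ± 0.40 (SE, adjusted p = 0.0603). It read 176, 229 and 136 at 120 days, 134, 34.8 and 144 at 60 days and 74.3, 60.4 and 27.8 at 3 days, with 60 day replicate 2 again lowest. RARB averaged 27.6 at 120 days and 30.0 at 3 days, and the retinol carrier RBP4 68.4 and 66.8.

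Among 9 other aldehyde dehydrogenases, 1 was called higher and 2 lower at 120 than at 3 days (33.3%, with 4.42% of all probe sets). ALDH2, the mitochondrial enzyme that clears acetaldehyde, rose by 1.14 ± 0.29 (SE, adjusted p = 0.0458), and this call did not hold in 11 of 24 alternatives. ALDH3A2, the fatty aldehyde dehydrogenase, fell by 1.45 ± 0.22 (SE, adjusted p = 0.00449), with 133, 193 and 179 at 120 days, against 540, 444 and 492 at 3 days. That call held under all 24 alternatives. ALDH18A1, which makes a proline precursor, fell by 0.99 at 120 against 3 days and fell by 0.86 at 3 days against the fetus. The first of these calls was lost without 3 day replicate 1 or 2 or 120 day replicate 1 or 2. Across birth ALDH7A1 fell by 0.79, and ALDH1L1 and ALDH1L2, both enzymes of folate metabolism, rose by 0.72 and 0.46, the last call being lost without 3 day replicate 2.

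The sum of adipocyte markers differed between stages as well. The summed intensity of 14 measured markers was 1524 to 2104 in fetuses, 5027 to 5246 at 3 days, 5833 to 6804 at 60 days and 6042 to 7018 at 120 days. GPD1, the brightest of the 14 at 60 and 120 days, averaged 1193 at 3 days, 1913 at 60 days and 2651 at 120 days. The rise of the sum after 3 days leaned on that gene. Across birth 9 of the 14 were called, all higher at 3 days (64.3%, with 43.0% of all probe sets). The defining marker ADIPOQ was not among them (0.17, adjusted p = 0.812). Between 3 and 60 days 0 were called by limma, with 1.53% of all probe sets. Between 3 and 120 days 1 was (CIDEA, 0.94, adjusted p = 0.0226), with 4.42% of all probe sets. ADIPOQ read 25.4 to 263 at 60 days, against 10.04 to 15.5 at 3 days (1.39, adjusted p = 0.213). Other markers of the list had differences of the opposite sign at 60 against 3 days, with -1.12 for the desaturase SCD (adjusted p = 0.15), -0.55 for the fatty acid synthase FASN, -0.34 for the transcription factor CEBPA and -0.16 for leptin (LEP), none of them called. The median of the 14 was 0.25 for 60 minus 3 days and 0.13 for 120 minus 3 days. Of 12 fibro-adipogenic markers, only GSN was called at 60 against 3 days (1.02, adjusted p = 0.0225) and at 120 against 3 days (1.36, adjusted p = 0.00305). That is 8.33% of the list each time, with 1.53% and 4.42% of all probe sets. Other markers of the list had differences of the opposite sign, none of them called. The median of the 12 was -0.025 for 60 minus 3 days and 0.25 for 120 minus 3 days. The part of these cells in the ALDH1A1 values was not tested.

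Of 25 complement genes other than C4BPA, 8 were higher and 0 lower at 3 days than in the fetus (32%, with 43.0% of all probe sets called), with a median difference of 0.19. The 8 became 5 without fetal replicate 1 and 4 without fetal replicate 2, and ranged from 4 to 10 without 1 array. Fetal replicate 3, with the high macrophage marker sum, was far above the other fetal arrays in part of the list. On it C1QC read 3575, against 288 and 134, and C3 read 529, against 24.9 and 32.5. FCN2, in contrast, read 28.1, 35.3 and 35.5 on the 3 fetal arrays. CFD, factor D of the alternative pathway, rose by 2.39 ± 0.48 (SE, adjusted p = 0.00204), with 213, 420 and 790 at 3 days, against 61.2, 39.6 and 96.4 in the fetus. Clusterin (CLU), which blocks the terminal complex, rose by 1.46, FCN2, a ficolin that starts the lectin pathway, by 0.84 and CFB, factor B, by 0.76. The call for CLU did not hold without fetal replicate 1 or 2, nor that for CFB without fetal replicate 2 or 3 day replicate 3.

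After birth CFB was the only complement gene called, although without 3 day replicate 3 another was higher at 120 than at 3 days. It read 131, 137 and 140 at 60 days, against 314, 239 and 503 at 3 days, a difference of -1.19 ± 0.24 (SE, adjusted p = 0.0321), and fell by 0.98 at 120 against 3 days. Both CFB calls were lost without any 1 of 7 arrays. The highest CFB array, 3 day replicate 3, was the one with the high hepatocyte marker sum carried by HP. At 60 against 3 days 0 of the 25 were called higher, with 0.786% of all probe sets. CD55, a regulator encoded directly beside C4BPA, averaged 51.5 at 60 days and 25.6 at 3 days (0.63, adjusted p = 0.127). A second CD55 probe set went the other way, with 26.3 at 60 days and 37.8 at 3 days. The regulators CD46 and CD59 were not called in any comparison. CD46 read 197, 304 and 1208 at 3 days, the last on replicate 3. Its difference of 60 from 3 days ranged from -1.05 to 0.20 without 1 array. C4BPB, the beta chain of the same inhibitor, averaged 12.4 to 14.7 over the stages and did not pass the filter. Albumin (ALB), the defining hepatocyte marker, read 20.7 to 41.0 on all arrays and did not pass it either. The other defining marker, APOA1, passed, at 84.9 to 196 at 60 days and 170.0 to 256 at 3 days. After birth 0 of the 6 measured hepatocyte markers were called, where 1.53% (60 against 3 days) and 4.42% (120 against 3 days) of all probe sets were.

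Of 20 pigment genes other than OCA2, 3 were higher and 11 lower at 3 days than in the fetus (70%, with 43.0% of all probe sets), with a median of -0.44. The 3 became 1 without fetal replicate 2 or 3 day replicate 2. TPCN2, a cation channel of endolysosomes, fell by 2.21 (adjusted p = 4.01e-05). RAB32, a small GTPase of melanosome traffic, fell by 1.13 and the receptor KIT fell by 1.03, whereas MLPH, which links melanosomes to myosin, rose by 0.79. None of the 20 was called from 3 to 60 days, with 1.53% of all probe sets. Only DTNBP1 was from 3 to 120 days (5% of the list, with 4.42% of all probe sets), at 0.91 (adjusted p = 0.0277), a call lost without any 1 of the 6 arrays compared. The melanocyte enzymes TYR and TYRP1 read 21.9 to 39.7 and 6.88 to 26.7 on all arrays and did not pass the filter, and DCT and PMEL had no probe set among those named here. Of the 6 genes in the melanocyte marker list only MITF passed the filter, at 72.6 to 88.6 at 120 days and 53.2 to 59.6 at 3 days. It was not called.

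MSS51 was set beside 3 lists. Of 9 other genes with a MYND zinc finger, 3 were higher and 1 lower at 3 days than in the fetus (44.4%, with 43.0% of all probe sets). The 3 became 0 without fetal replicate 1, and 1 without any 3 day array or 120 day replicate 1. SMYD2, a methyltransferase found in muscle, rose by 0.99 across birth (adjusted p = 0.0278) and by 1.67 ± 0.33 from 3 to 120 days (SE, adjusted p = 0.0153). It read 1142, 1101 and 759 at 120 days, against 207, 258 and 476 at 3 days, and 847, 1166 and 572 at 60 days. Unlike MSS51, SMYD2 was highest on 60 day replicate 2. Its call from 3 to 120 days was lost without 3 day replicate 1 or 2 or 120 day replicate 1 or 2, and that across birth without fetal replicate 1 or 2 or 3 day replicate 3. RUNX1T1 fell by 1.62 across birth, and PDCD2L and SMYD5 rose by 0.50 and 0.37, both calls being lost without any 1 of 6 arrays. SMYD1, the muscle member of the family, was not called in any comparison.

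Of 16 genes of myostatin and TGF-beta signalling, 1 was higher and 9 lower at 3 days than in the fetus (62.5%, median -0.63). Of all probe sets 43.0% were called there, 22.6% being lower. TGFB2 fell by 1.87, TGFB3 fell by 1.79 and the receptor ACVR1 fell by 1.496. MSTN fell by 3.24 ± 0.59 (SE, adjusted p = 0.00115). MSTN was 2.03 higher at 120 than at 3 days with an adjusted p of 0.0764. After birth 0 of the 16 were called, where 1.53% (60 against 3 days) and 4.42% (120 against 3 days) of all probe sets were. At 120 against 3 days 1 was called without fetal replicate 2 or 3, 60 day replicate 2 or 120 day replicate 2. MSS51 did not share the fetal height of MSTN, since its fetal arrays of 61.1 to 66.5 were as low as 3 day replicate 3.

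Of 10 genes that assemble or translate cytochrome c oxidase, 5 were higher and 0 lower at 3 days than in the fetus (50%, with 43.0% of all probe sets called and 20.3% higher), with a median of 0.50. TBRG4 rose by 1.27 (adjusted p = 9.91e-05), TACO1, the activator of the same subunit's translation in human mitochondria, by 1.17, COX10 by 1.02 and OXA1L by 0.79. MSS51 differed by 0.50 at that step with overlapping arrays, by 0.14 without 3 day replicate 1 and by 0.84 without 3 day replicate 3. After birth none of the 10 was called higher, where 0.786% (60 against 3 days) and 2.29% (120 against 3 days) of all probe sets were. The median of the 10 was -0.028 for 60 minus 3 days and -0.16 for 120 minus 3 days. TBRG4 fell by 0.76 at 120 against 3 days (adjusted p = 0.02), a call lost without any 1 of 5 arrays.

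**Figure D4:**
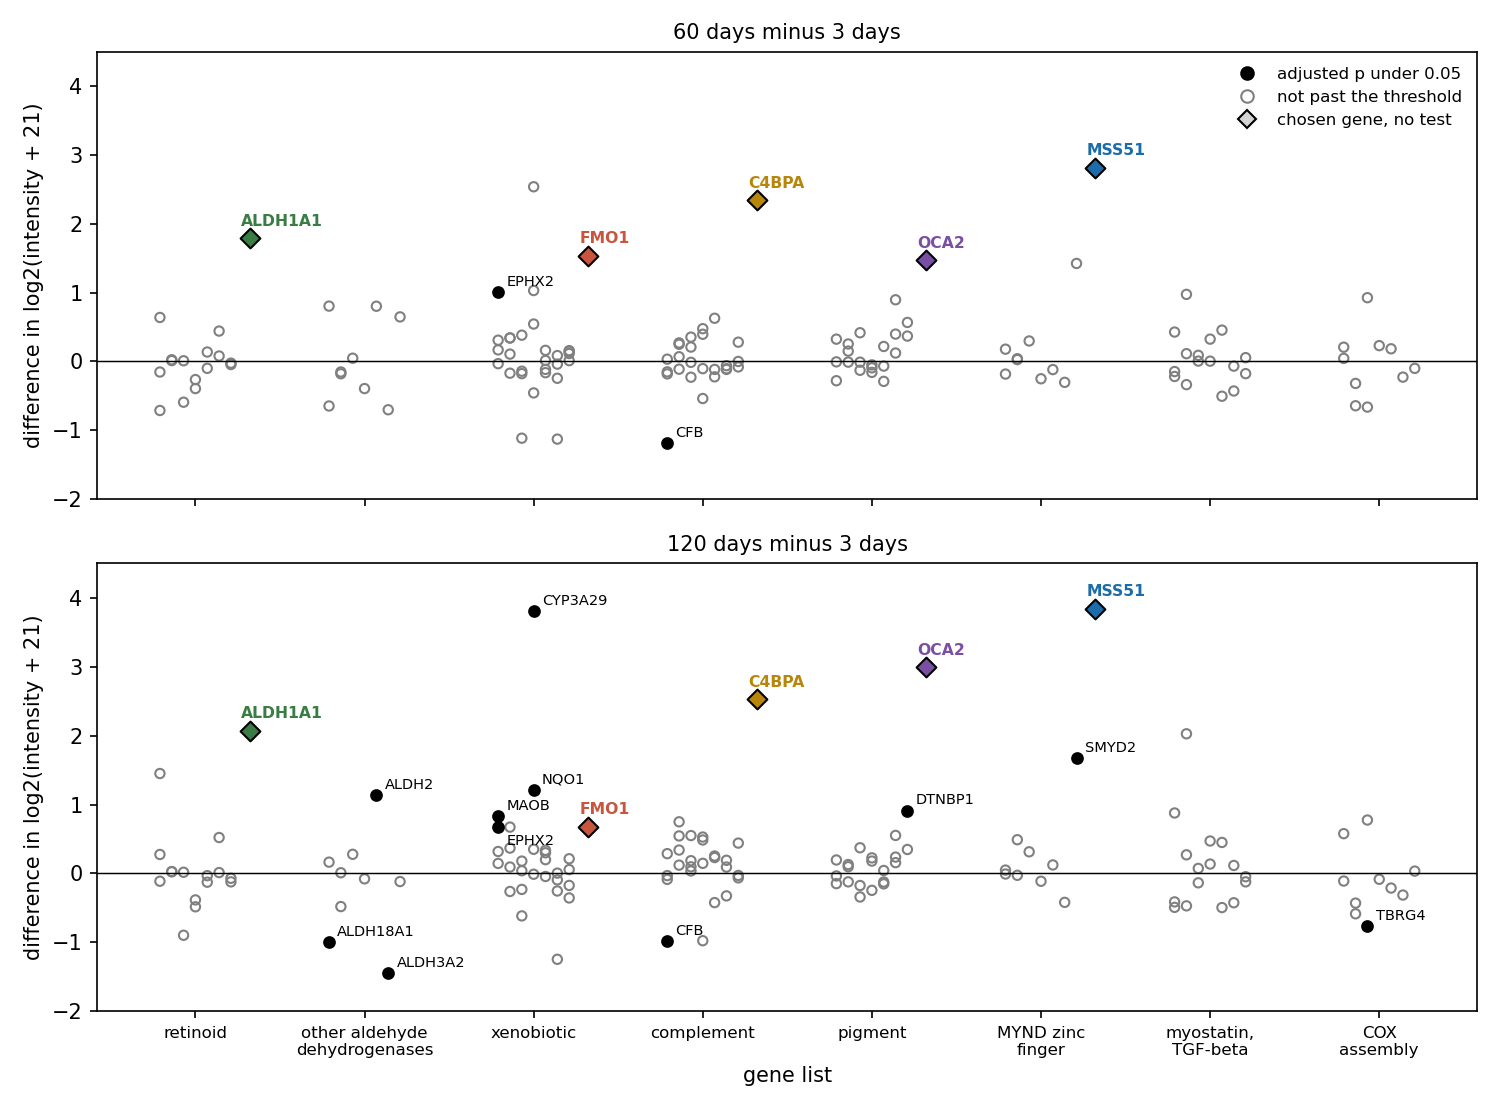
Difference in log2(intensity + 21) of each measured gene in the 8 lists, for 60 minus 3 days (top) and 120 minus 3 days (bottom), with filled circles at an adjusted p under 0.05, open circles otherwise, and diamonds for the 5 chosen genes, which were not tested. In the upper panel EPHX2 and CFB are the 2 filled circles, and in the lower panel CYP3A29 (3.81) is the one list gene near the difference of MSS51 (3.84).

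Genes next to the 5 on the chromosome were looked up by order in the same RefSeq table, taking the 3 nearest measured genes on each side. None of the 30 neighbours was called in a comparison after birth, where 1.53% (60 against 3 days) and 4.42% (120 against 3 days) of probe sets were. Across birth 13 of the 30 were called, with 10 higher and 3 lower, or 43.3% against the 43.0% background. PPP3CB, the calcineurin subunit directly beside MSS51, averaged 2102 at 120 days and 1267 at 3 days (0.73, adjusted p = 0.187). MYOZ1, a Z-disc protein on the other side of MSS51 with 1 gene between, rose by 1.27 across birth (adjusted p = 4.54e-05). It rose by no called amount later. ANXA1, directly beside ALDH1A1, was not called. KLF9, the third measured gene on the other side, rose by 3.59 across birth (adjusted p = 2.93e-06). The nearest measured neighbours of FMO1 were BTG2, which was not called, and ACAD8, which rose by 1.16 across birth. PPP1R3B, the nearest measured gene on one side of OCA2, rose by 1.49 (adjusted p = 0.0417) where OCA2 was lower, a call lost without any 1 of 7 arrays.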

How the data were processed

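Per the labels' protocols, RNA was isolated with Trizol, labelled with biotin as cRNA and hybridised, with a separate Affymetrix porcine array for each sample. The table deposited by the authors holds linear intensities for 24123 probe sets. GCOS 1.4 is named in the submitters' processing notes, and how probes were summarised and scaled was not given in the sources used here. No normalization was added, since medians differed little between arrays.

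The 124 control probe sets were set aside. Values were taken as log2(intensity + 21), 21 being the 25th percentile. A probe set was kept if it exceeded its array's 40th percentile on 3 or more arrays, which left 16166 (67.4%). A 2016 platform annotation gave 1 symbol to 10069 probe sets, several to 198 and none to 13732, and 0 symbols changed through Entrez identifiers. The brightest kept probe set stood for a gene.

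One limma fit used all 12 arrays with a mean for each stage and a trend in the variance, with 8 residual and 4.26 prior degrees of freedom, and its tests were two-sided. On simulated data for 60 minus 3 days it recovered 55% of 2-fold and 92% of 4-fold changes, with 8 false calls among 16166 probe sets.

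The 5 genes, the 8 pathway lists and the 8 marker lists were chosen with earlier results of these data known. The genes named were all probe sets of the 5 genes, up to 4 called genes per pathway list and comparison with the largest differences, fixed relatives, the 5 nearest courses per gene and the 3 nearest measured genes on each side. CIDEA and GSN, the only adipocyte and fibro-adipogenic markers called after birth, were named after their values were seen. So were SCD, FASN, CEBPA, LEP, GPD1, HP, C1QC and C3. Alternatives were other pseudocounts, filters, normalizations and variance models, array weights, fewer arrays, the replicate number as a block, and leaving out each array. Calculations used R 4.3.3 with limma 3.58.1 and data.table (version 1.17.8). Figures were drawn with matplotlib 3.10.9 in Python 3.11.15, with pandas 2.3.3 and NumPy 2.4.6.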

Additional observations from a re-analysis of the deposited data

How the results depend on the processing

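Of 58 calls of named genes, 29 held under every one of up to 24 alternatives that gave a value, 33 held without any single array, and 0 changed direction. The number of arrays limits precision, and dim probe sets depend on the added constant. The ALDH1A1 difference of 60 from 3 days was 2.16 with a constant of 1, 1.44 with 51 and 1.47 as the median of its probe sets, in place of 1.79. Without 1 array it ranged from 1.58 to 1.93, and the same difference from 2.40 to 3.55 for MSS51, 1.35 to 1.66 for FMO1, 1.004 to 2.22 for OCA2 and 1.89 to 2.83 for C4BPA. Signs turned for ALDH1A1 across birth (0.0074 without fetal replicate 3, from -0.50 to 0.0074 without 1 array) and for C4BPA between 120 and 60 days (-0.21 without 60 day replicate 1 and -0.27 without 120 day replicate 1, from -0.27 to 0.82 without 1 array).

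For 60 minus 3 days, the 247 probe sets called became 926 with array weights, 39 with only the 6 arrays compared and 161 with the replicate block, and 75 to 297 without 1 array (75 without 3 day replicate 1 or 2, 91 without 60 day replicate 1, and 151 and 154 without 120 day replicates 1 and 2). The 2 pathway genes called there became 5 with a filter at the 60th percentile, 4 with quantile normalization, 1 with the median of a gene's probe sets, 5 without a variance trend, 14 with array weights and 0 with 6 arrays, and 0 to 4 without 1 array. For 120 minus 60 days, 1 probe set was called without a filter and 0 to 5 without 1 array, and no pathway gene was. For 120 minus 3 days, the 714 probe sets called became 4756 with array weights and 1525 with 6 arrays, and 188 to 862 without 1 array, the lowest 5 counts being without 3 day replicate 1 or 2 or any 120 day array. The 11 pathway genes became 42 with array weights and 1 to 13 without 1 array. Across birth the counts without 1 array were 5394 to 7194 probe sets and 47 to 66 pathway genes. The cause of these changes was not tested, except that fewer arrays leave fewer degrees of freedom.

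Arrays with the same replicate number did not deviate together (r from -0.42 to 0.30 over 18 pairs, and 3 of 12 arrays correlated best with their own number), so the numbers were not taken as pairs. With the replicate block the calls were 6546 across birth, 161 for 60 minus 3 days, 0 for 120 minus 60 days and 556 for 120 minus 3 days.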
